A study of Drosophila melanogaster with 18 samples.

Results

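MicroRNA genes were examined for peaks of GAGA factor (GAF, the product of Trithorax-like) and of H4K8ac, the acetylated lysine 8 of histone H4, in mitotic and interphase nuclei of early Drosophila melanogaster embryos. The members are the annotated genes whose symbol starts with mir- or let-7 and that lie on a nuclear chromosome (the let-7 gene itself carries the symbol mir-let7). They number 260 of 17796 genes, without transposable elements, on the nuclear chromosomes. The rule found 262 symbols, and 2 copies of mir-10404 on an unplaced scaffold of ribosomal DNA were left out. The annotated hairpins measured 50 to 174 bases, with a median of 92. Hairpins no more than 2 kb apart were joined, which gave 206 loci, 26 of them with 2 or more genes.

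The nuclei came from whole yw embryos, the wild type of the study, aged by the labels 1 to 2.5 h after egg laying (the methods begin this window later), with 1000 embryos per sample. They were stained for histone H3 phosphorylated on serine 10, a mark of mitotic chromosomes, and sorted into a mitotic and an interphase pool before chromatin immunoprecipitation and sequencing (ChIP-seq). Of the 18 samples, 2 were GAF ChIP from mitosis, 3 GAF ChIP from interphase, 2 H4K8ac ChIP from mitosis and 2 H4K8ac ChIP from interphase, and each of these 9 had an input sample. All groups share the genotype and the age, none was treated, and the antibodies were anti-GAF and anti-H4K8ac. The files used here give positions of peaks only, 1 list per target and stage, in which the replicates are pooled, so they hold no value, depth or spread per sample and no difference between stages was tested. The lists hold 1839 mitotic and 4970 interphase GAF peaks, and 5405 mitotic and 5806 interphase H4K8ac peaks. A peak can therefore be present or missing, and long or short, but the files give no height. In both H4K8ac lists the shortest gap between neighbouring peaks is 2000 bp, against 200 bp in the GAF lists. The names of the H4K8ac lists carry the same wide gap, which is not the one in the study's methods, so an H4K8ac peak can span stretches without enrichment of almost 2 kb. Bases covered by H4K8ac, here and below, are bases inside such peaks and not a measured length of acetylated chromatin. In whole embryos, a peak in few nuclei and a weak peak in many cannot be told apart, and no cell type could be checked.

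A microRNA is cut from a hairpin in a longer primary transcript, and neighbouring hairpins are often cut from 1 shared transcript. The mature microRNA pairs through its seed, bases 2 to 8, with messenger RNAs and lowers their translation or stability. GAF is a pioneer factor that binds repeats of GA. H4K8ac is a mark of active chromatin. The miR-309 cluster is known in the early embryo for the clearance of maternal messenger RNAs once zygotic transcription begins.

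The mature sequences below come from loci with a mitotic GAF peak within 2 kb, and all 260 members matched a mature sequence in the RefSeq annotation of the same assembly (dm6, Release 6). They are shown because several of these loci encode microRNAs with 1 common seed. The capitals mark the seed, and positions are those of the mature sequence in dm6. The first 6 share the seed of the K box family, known for its targets among proapoptotic genes, and the next 2 share the seed of mir-279. The last 4 are the microRNAs of the homeotic complexes and of the nervous system.
mir-2a-1 3' arm, chr2L:19569902-19569924, minus strand: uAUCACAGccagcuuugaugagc
mir-2b-2 3' arm, chr2L:19570189-19570211, minus strand: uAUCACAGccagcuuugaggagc
mir-2c 3' arm, chr3R:15417761-15417783, minus strand: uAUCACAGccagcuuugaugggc
mir-13a 3' arm, chr3R:15417548-15417569, minus strand: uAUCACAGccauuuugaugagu
mir-13b-1 3' arm, chr3R:15417412-15417433, minus strand: uAUCACAGccauuuugacgagu
mir-11 3' arm, chr3R:21622504-21622524, minus strand: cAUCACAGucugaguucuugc
mir-279 3' arm, chr3R:29215651-29215672, plus strand: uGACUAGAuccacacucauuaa
mir-996 3' arm, chr3R:29217244-29217265, plus strand: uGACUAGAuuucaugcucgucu
mir-10 5' arm, chr3R:6809553-6809574, minus strand: aCCCUGUAgauccgaauuuguu
mir-iab-4 5' arm, chr3R:16856281-16856302, plus strand: aCGUAUACugaauguauccuga
mir-iab-8 5' arm, chr3R:16856315-16856337, minus strand: uUACGUAUacugaagguauaccg
mir-124 3' arm, chr2L:17566426-17566448, plus strand: uAAGGCACgcggugaaugccaag

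The next sequences are mitotic GAF peaks, or their middle 300 bases where a peak is longer, with 1 peak per locus. They come from 8 of these loci and from 1 locus whose peak was listed in mitosis only. The locus of mir-279 and mir-996 has 2 mitotic peaks and that of mir-4962 has 5, and 1 of each is printed. The sequences show how the GAF motif is spaced at these bound sites. All are read from the plus strand of dm6, and the capitals mark GAGAG or its complement CTCTC.
mir-10, chr3R:6810701-6811000: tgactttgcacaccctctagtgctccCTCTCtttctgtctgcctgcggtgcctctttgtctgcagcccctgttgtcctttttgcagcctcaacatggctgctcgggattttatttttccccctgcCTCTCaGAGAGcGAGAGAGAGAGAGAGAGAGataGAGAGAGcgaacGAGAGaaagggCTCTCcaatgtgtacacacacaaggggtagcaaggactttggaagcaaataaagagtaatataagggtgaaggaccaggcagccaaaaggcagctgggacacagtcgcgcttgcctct
mir-iab-4 and mir-iab-8, chr3R:16857626-16857925: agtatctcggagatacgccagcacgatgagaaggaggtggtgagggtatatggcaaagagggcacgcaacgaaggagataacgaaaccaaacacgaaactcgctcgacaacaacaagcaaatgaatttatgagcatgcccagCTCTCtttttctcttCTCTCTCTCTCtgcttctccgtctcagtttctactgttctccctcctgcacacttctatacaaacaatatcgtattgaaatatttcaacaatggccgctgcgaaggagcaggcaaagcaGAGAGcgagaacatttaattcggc
mir-124, chr2L:17565851-17566050: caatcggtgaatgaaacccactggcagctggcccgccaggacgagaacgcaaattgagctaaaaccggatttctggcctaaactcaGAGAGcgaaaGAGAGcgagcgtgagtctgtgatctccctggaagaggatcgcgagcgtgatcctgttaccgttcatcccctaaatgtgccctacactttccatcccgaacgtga
mir-2a-1, mir-2a-2 and mir-2b-2, chr2L:19571826-19572125: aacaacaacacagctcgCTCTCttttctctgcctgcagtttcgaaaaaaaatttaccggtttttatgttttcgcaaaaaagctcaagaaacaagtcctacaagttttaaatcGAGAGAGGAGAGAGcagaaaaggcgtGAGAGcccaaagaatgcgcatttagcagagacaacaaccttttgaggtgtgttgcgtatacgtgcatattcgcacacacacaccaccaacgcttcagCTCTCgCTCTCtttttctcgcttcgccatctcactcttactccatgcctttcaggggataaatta
mir-998 and mir-11, chr3R:21621801-21621900: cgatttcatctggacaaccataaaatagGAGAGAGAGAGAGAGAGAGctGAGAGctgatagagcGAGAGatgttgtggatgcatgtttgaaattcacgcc
mir-279 and mir-996, chr3R:29215801-29215950: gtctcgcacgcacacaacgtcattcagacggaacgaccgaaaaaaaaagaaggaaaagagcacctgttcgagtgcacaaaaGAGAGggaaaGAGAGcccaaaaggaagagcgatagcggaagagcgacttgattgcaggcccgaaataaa
mir-4962, chrX:3777276-3777575: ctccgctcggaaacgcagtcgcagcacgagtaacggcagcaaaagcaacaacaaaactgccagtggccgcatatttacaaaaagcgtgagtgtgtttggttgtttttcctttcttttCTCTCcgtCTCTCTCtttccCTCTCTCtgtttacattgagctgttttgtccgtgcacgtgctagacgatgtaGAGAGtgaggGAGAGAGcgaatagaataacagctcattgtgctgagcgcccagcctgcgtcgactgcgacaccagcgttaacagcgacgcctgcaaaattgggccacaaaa
mir-9377, chrX:12665101-12665300: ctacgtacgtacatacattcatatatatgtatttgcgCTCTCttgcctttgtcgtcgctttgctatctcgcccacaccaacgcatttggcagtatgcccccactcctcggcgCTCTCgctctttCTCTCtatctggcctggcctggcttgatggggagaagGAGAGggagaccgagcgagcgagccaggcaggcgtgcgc
mir-13b-2, chrX:9093001-9093300: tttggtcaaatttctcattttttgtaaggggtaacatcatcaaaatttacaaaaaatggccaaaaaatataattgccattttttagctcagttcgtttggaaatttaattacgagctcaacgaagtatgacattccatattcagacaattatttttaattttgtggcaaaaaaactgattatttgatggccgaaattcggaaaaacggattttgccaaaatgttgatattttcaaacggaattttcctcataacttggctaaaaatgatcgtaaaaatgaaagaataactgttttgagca

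In these windows GAGAG was counted on both strands, as matches that do not overlap each other. The mir-10 window held 9 matches, the window of the 3 mir-2 genes 6, and those of mir-998 and mir-11 and of mir-4962 5 each. The windows of mir-iab-4 and mir-iab-8 and of mir-9377 held 4 each, and those of mir-124 and of mir-279 and mir-996 held 2 each. The window of mir-13b-2 held 0. The window not printed at mir-279 and mir-996 held 1 match, and those not printed at mir-4962 held 3 to 5 each. Over all members, 27 of the 33 mitotic GAF peaks (81.8%) held GAGAG in the 300 bases around their middle, against 90.2% of the 1829 mitotic GAF peaks on nuclear chromosomes and 30.3% of the 456591 adjoining windows of 300 bases of those chromosomes. CAGGTAG, the site of the pioneer factor Zelda, was in 1 of the 33 windows (3.03%), against 2.90% of all mitotic GAF peaks and 1.63% of the genome's windows. A match is a description of the sequence and not a measured site.

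Mitotic GAF peaks lay on or within 2 kb of 35 of the 260 microRNA genes (13.5%, 95% Wilson interval 9.84 to 18.1), against 10.8% of all genes. Interphase GAF peaks lay there at 53 microRNA genes (20.4%, 15.9 to 25.7), against 25.1% of all genes. A retained peak, an interphase peak that shares at least 1 base with a mitotic one, lay at 33 microRNA genes (12.7%, 9.18 to 17.3), against 11.0% of all genes. These counts and their order depend on the settings. With an overlap of at least 50% of both peaks, retained peaks were left at 13 of the 260 microRNA genes and at 778 of the 17796 genes (4.37%). With peaks of at least 400 bp, mitotic peaks lay at 9 microRNA genes (3.46%), against 3.97% of all genes, and retained peaks at 9 (3.46%), against 3.91%. At 1 kb, mitotic peaks lay at 17 microRNA genes (6.54%), against 8.85% of all genes, and retained peaks at 19 (7.31%), against 9.29%, so that the microRNA genes had the lower share under both of these settings. Interphase peaks lay at 32 microRNA genes (12.3%) at 1 kb, against 20.9% of all genes, and at 96 (36.9%) at 5 kb, against 36.4%. These intervals, here and below, cover counting error only and take genes as independent, although genes of a cluster share peaks. Counted by locus, 22 of 206 had a retained peak, 19 had interphase peaks only, 3 had mitotic peaks only and 162 had none.

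Long genes have more room for a peak than hairpins do, so the gene classes were also compared over 2 kb to each side of the 5' end alone. Measured so, a mitotic GAF peak lay at 35 microRNA genes (13.5%, 9.84 to 18.1), against 8.07% (7.63 to 8.53) of 13968 protein-coding genes. Among 591 genes of tRNAs, snoRNAs and snRNAs, other classes of short noncoding RNA, the share was 3.89% (2.61 to 5.77). At 1 kb from the 5' end, these shares were 6.54% of the microRNA genes, 6.09% of the protein-coding genes and 3.05% of the other short RNA genes. With peaks of at least 400 bp they were 3.46%, 2.66% and 1.69% of the same 3 classes. Interphase GAF peaks lay at 19.2% (14.9 to 24.5) of the microRNA genes, 19.9% of the protein-coding genes and 12.5% of the other short RNA genes. H4K8ac showed another order, with mitotic peaks at 38.8% (33.1 to 44.9) of the microRNA genes, 55.4% of the protein-coding genes and 53.0% of the other short RNA genes. The 5' end of a hairpin is a processing site and not the start of its transcript, which is not annotated for many members.

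**Figure D1:**
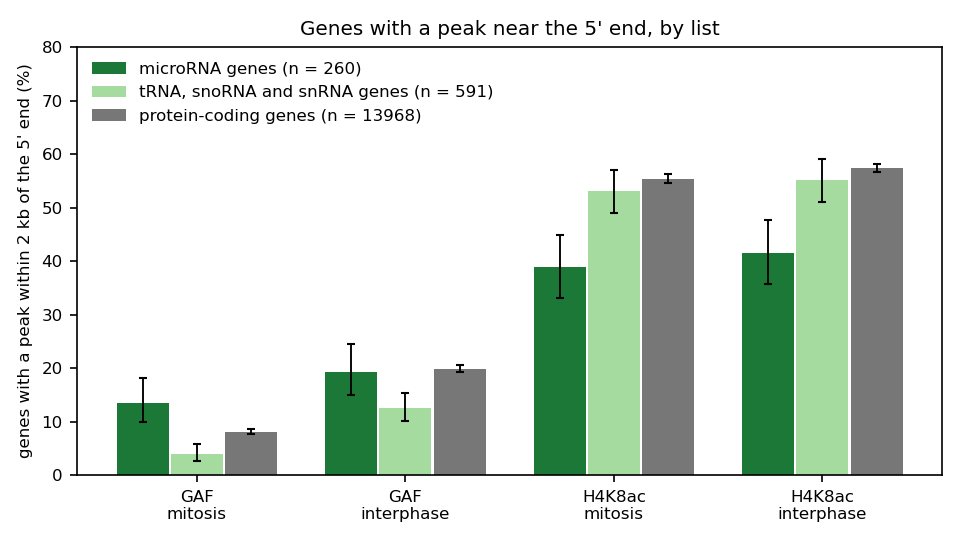
Share of genes (%) with a peak within 2 kb of the 5' end, for each of the 4 lists, in microRNA genes (n = 260), in tRNA, snoRNA and snRNA genes (n = 591) and in protein-coding genes (n = 13968). Bars are shares and lines are 95% Wilson intervals. At this distance the microRNA bar is the highest of the 3 for mitotic GAF (13.5%) and the lowest of the 3 for mitotic H4K8ac (38.8%).

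Of the 55 interphase GAF peaks at microRNA genes, 26 were retained (47.3%, 34.7 to 60.2), against 31.2% of all 4970 interphase GAF peaks. Retention went with peak length both at members and in the whole list. Up to 400 bp, 1 of 20 peaks at microRNA genes was retained, against 3.76% of the list. From 450 to 600 bp, 8 of 15 were retained, against 48.2% of the list. From 650 bp upwards, 17 of 20 were retained, against 82.7% of the list. The interphase peaks at microRNA genes had a median length of 500 bp, against 400 bp in the list, and within each of these length classes the share at microRNA genes was near that of the list.

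The mitotic peaks at retained sites were the shorter ones. At 24 of the 26 retained interphase peaks the longest mitotic peak was shorter and lay wholly inside the interphase peak, and both exceptions were at copies of mir-10404. In the whole list the mitotic peak was shorter at 96.8% of retained peaks. By the methods, mitotic chromatin was sonicated longer than interphase chromatin, and the GAF lists pool 2 mitotic and 3 interphase samples. An effect of stage on peak length cannot be told apart from these differences. The retained interphase peaks at microRNA genes had a median of 650 bp and 5 GAGAG matches, and the 29 listed in interphase only had a median of 300 bp and 3 matches. A transcript start of another gene lay within 100 bp of 14 of the 26 retained peaks (53.8%) and of 14 of the 29 interphase-only peaks (48.3%). In the whole list these shares were 55.4% for retained and 29.5% for interphase-only peaks.

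The mitotic GAF peaks stood on both sides of the hairpins. Of 33 mitotic peaks, 14 lay upstream of the nearest hairpin, 12 downstream and 7 overlapped it. Of 55 interphase peaks, 29 lay upstream, 17 downstream and 9 on the hairpin. The farthest mitotic GAF peaks inside the 2 kb limit were 1829 bp from mir-2a-1 and 1859 bp from mir-2498, and the nearest outside were 2240 bp from mir-2a-2 and 2350 bp from mir-991. mir-2a-2 still counted among the genes with a retained peak, through an interphase peak 1940 bp away that overlaps this mitotic peak. For interphase GAF, mir-955 stood at 2000 bp, just inside, and mir-2490 at 2052 bp, just outside.

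**Figure D2:**
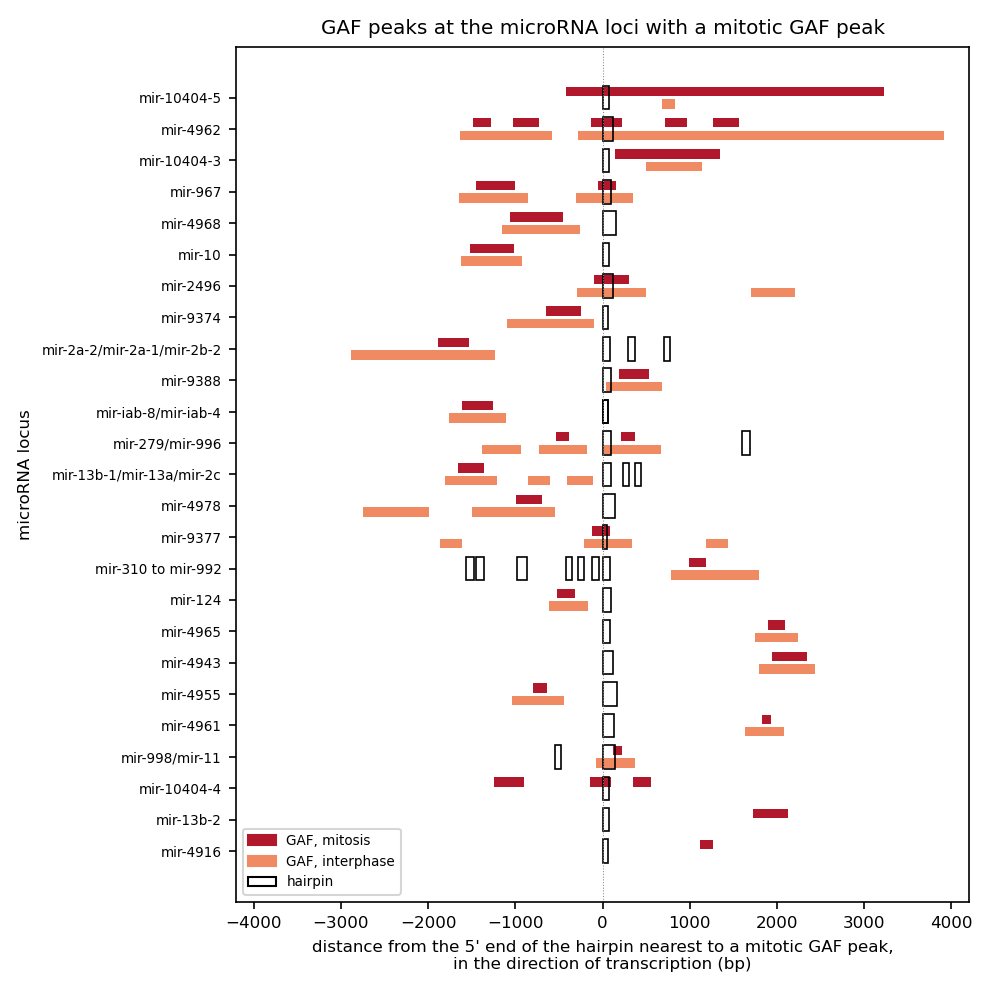
GAF peaks at the 25 microRNA loci with a mitotic GAF peak, by distance (bp) from the 5' end of the hairpin nearest to a mitotic peak, in the direction of transcription. Dark bars are mitotic peaks, light bars below them are interphase peaks and open boxes are hairpins. At 20 of the 22 loci with retained peaks the longest mitotic bar is shorter than the longest interphase bar, and the bottom 3 loci have mitotic bars only.

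The microRNAs of the homeotic complexes, which lie among the Hox genes that set segment identity, had retained GAF peaks at 3 of 4 genes. Over all genes, 11.0% had a retained peak. Near mir-10, in the Antennapedia complex, a mitotic peak of 500 bp lay within an interphase peak of 700 bp, both on the annotated start of lncRNA:CR45915. H4K8ac covered 2582 bp in mitosis and 1882 bp in interphase of the hairpin and its flanks of 2 kb. The hairpins of mir-iab-4 and mir-iab-8, which are cut from opposite strands of 1 interval in the bithorax complex and repress Ultrabithorax, shared a mitotic GAF peak of 350 bp inside an interphase peak of 650 bp. H4K8ac covered 2042 bp of their window in mitosis and 0 bp in interphase. mir-993, the remaining member, had no peak of GAF or H4K8ac. So the 2 GAF-bound intervals of the homeotic complexes both had more bases under H4K8ac in mitosis.

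The K box family, whose seed is in 14 members by the RefSeq sequences, had 7 genes with retained GAF peaks, at 3 loci. It also had 1 gene with a mitotic peak only. Over all genes, 11.0% had a retained peak. The list used for this family held 13 of the 14, without mir-5. The 3 genes mir-2a-1, mir-2a-2 and mir-2b-2 lie in an intron of spitz (spi), the main ligand of the EGF receptor. The interphase GAF peak there measured 1650 bp and covered a start of spi, and 2 mitotic peaks overlapped it, of which the one within 2 kb of the hairpins measured 350 bp. H4K8ac covered 2864 bp of this locus and its flanks in mitosis and 64 bp in interphase. The peaks themselves measured 9050 bp in mitosis and 12750 bp in interphase and overlapped. All but 64 bp of the interphase one lay beyond the limit of 2 kb. At mir-13b-1, mir-13a and mir-2c, which lie in exons of lncRNA:CR45911, 3 interphase GAF peaks were listed and 1 of them, of 600 bp, held a mitotic peak of 300 bp. H4K8ac covered 445 bp of that locus in mitosis and 395 bp in interphase. mir-11 and mir-998 lie in an intron of E2f1, a cell cycle regulator, and shared a mitotic GAF peak of 100 bp within an interphase peak of 450 bp. H4K8ac covered 0 bp of their window in mitosis and 300 bp in interphase. Within 2 kb, the length under H4K8ac peaks at the family's retained loci was thus higher in mitosis at 2 loci and lower at 1.

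mir-13b-2, whose mature 3' arm has the same 22 bases as that of mir-13b-1, lies apart from the other copies, in an intron of CCT2 on X. Its mitotic GAF peak of 400 bp had no interphase counterpart. The peak is 81.5% soft-masked as repeats, and the window printed above holds no GAGAG. H4K8ac covered 1250 bp around this gene in mitosis and 650 bp in interphase. The remaining K box genes without a GAF peak were mir-2b-1, mir-308, mir-5 and the 3 mir-6 genes, and the last 4 of these belong to the miR-309 cluster.

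Among the microRNAs of epithelium and nervous system, 3 of the 7 list members found had retained GAF peaks, against 11.0% of all genes. The list holds 8 genes, and mir-263a was not found under that symbol, so its peaks were not counted here. mir-124, the microRNA of differentiated neurons, had a mitotic peak of 200 bp within an interphase peak of 450 bp and no H4K8ac peak in either stage. This mitotic peak lay 57 bp from the start of its host transcript, lncRNA:CR45919. mir-279 and mir-996, which limit the formation of neurons that sense CO2 and share a host transcript, had 2 mitotic peaks of 150 bp each and 3 interphase peaks of up to 650 bp. H4K8ac covered 2880 bp of this locus in mitosis and 1780 bp in interphase. mir-8, the fly member of the miR-200 family, had an interphase GAF peak of 150 bp and no mitotic one. mir-286, which shares the seed of mir-279 and mir-996, had no GAF peak.

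The miR-310 cluster, known to act on the Hedgehog pathway in the ovary, had a retained peak at 4 of 4 genes. These genes belong to 1 locus and share that peak, so they count as 1 case. Over all genes, 11.0% had a retained peak. The mitotic peak measured 200 bp and the interphase peak 1000 bp, and both lay downstream of the cluster, where the interphase peak covered a start of qsm. No H4K8ac peak lay within 2 kb of these 4 genes in either stage. Its neighbour mir-2498 had the same 2 GAF peaks, and mir-991 and mir-992, farther along the locus, had none within 2 kb.

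Among the 7 hairpins that a mitotic GAF peak overlapped (mir-967, mir-998, mir-2496, mir-4962, mir-9377, mir-10404-4 and mir-10404-5), 4 held GAGAG on one of the strands of the hairpin itself. That is 57.1% (25.0 to 84.2), against 38 of all 260 hairpins (14.6%, 10.8 to 19.4) and 26 of the 204 hairpins with no GAF peak within 2 kb (12.7%). It was 6 of the 25 hairpins with a retained peak within 2 kb and none on the hairpin (24.0%, 11.5 to 43.4). The 7 were chosen by a GAF peak on them, and 91.3% of mitotic GAF peaks on nuclear chromosomes held GAGAG. A higher share is thus partly built in, and the comparison is not a test. The hairpin of mir-4962 held 5 matches, that of mir-967 3, that of mir-9377 2 and that of mir-2496 1. A mature arm of mir-10, mir-2a-1 and mir-4961 also held the motif, although no GAF peak overlapped their hairpins. At mir-4962, mir-967, mir-9377 and mir-2496 the motif ran into the mature microRNAs, which are printed here with GAGAG or CUCUC in capitals.
mir-4962 5' arm, chrX:3777408-3777431, plus strand: uuuccCUCUCUCuguuuacauuga
mir-4962 3' arm, chrX:3777456-3777478, plus strand: gacgauguaGAGAGugagggaga
mir-9377 5' arm, chrX:12665217-12665238, plus strand: cgcucuuuCUCUCuaucuggcc
mir-9377 3' arm, chrX:12665247-12665267, plus strand: cuugauggggagaagGAGAGg
mir-967 3' arm, chr2L:12460014-12460036, minus strand: cuuuuccaccuagguguCUCUCu
mir-2496 5' arm, chrX:2010310-2010333, plus strand: gugcguguguGAGAGgccaucgua

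mir-4962 had the most mitotic GAF peaks of any member. It lies in an intron of Tlk, which encodes the Tousled-like kinase, and had 5 mitotic peaks of 200 to 350 bp inside 2 interphase peaks of 1050 and 4200 bp. No H4K8ac peak was listed within 2 kb in either stage. mir-9377, in an intron of Tis11, whose product binds AU-rich elements, had a mitotic peak of 200 bp and 3 interphase peaks of up to 550 bp. There H4K8ac covered the whole window of 4052 bp in mitosis and 2084 bp in interphase. mir-967, in an intron of bunched (bun), a growth regulator, had 2 mitotic peaks of 200 and 450 bp within interphase peaks of 650 and 800 bp. H4K8ac covered its whole window of 4097 bp in mitosis and 3047 bp in interphase. At mir-2496, in no annotated host gene, the mitotic peak of 400 bp lay in an interphase peak of 800 bp, and H4K8ac covered 2200 bp in mitosis and 3667 bp in interphase. These 4 hairpins, which held the motif under a mitotic GAF peak, therefore differed in acetylation, from no peak to the whole window.

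The other 8 loci with retained peaks lie in or beside protein-coding genes. mir-9388, next to Mes2, had a mitotic peak of 350 bp in an interphase peak of 650 bp, and H4K8ac covered its whole window of 4092 bp in mitosis and 2407 bp in interphase. mir-9374, in an exon of the nuclear receptor gene Hr39, had a mitotic peak of 400 bp in an interphase peak of 1000 bp, with 1150 bp of H4K8ac in mitosis and 1250 bp in interphase. mir-4968, in an intron of Mob2, had a mitotic peak of 600 bp in an interphase peak of 900 bp, and H4K8ac covered 350 bp in both stages. H4K8ac was thus longer in mitosis at the first, shorter at the second and equal at the third.

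At mir-4961 the mitotic peak of 100 bp lay on a start of AMPKalpha, within an interphase peak of 450 bp, and H4K8ac covered 155 bp in both stages. mir-4943, mir-4955 and mir-4965 had mitotic peaks of 400, 150 and 200 bp in interphase peaks of 650, 600 and 500 bp and no H4K8ac peak. mir-4978, on the strand opposite to mastermind (mam), a coactivator of Notch, had a mitotic peak of 300 bp in an interphase peak of 950 bp, with 0 bp of H4K8ac in mitosis and 100 bp in interphase. Acetylation was listed in mitosis at 1 of these 5 loci.

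The 3 copies of mir-10404 on X had unlike GAF lists. Mitotic peaks at mir-10404-3 and mir-10404-4 lay on annotated starts of ribosomal RNA pseudogenes. The annotated transcript start nearest to the mitotic peak of mir-10404-5 was 243351 bp away. mir-10404-5 had a mitotic peak of 3650 bp and an interphase peak of 150 bp. mir-10404-3 had a mitotic peak of 1200 bp and an interphase peak of 650 bp, and mir-10404-4 had 3 mitotic peaks of 200 to 350 bp and no interphase peak. Their mature sequences are identical. Whether reads under the peaks can be assigned to a single copy was not tested, so the class of each copy is left uncertain. The third locus with mitotic peaks only was mir-4916, in an intron of Ir8a, with a peak of 150 bp that is 83.3% soft-masked and holds no GAGAG. In the whole list, 17.4% of the 144 mitotic peaks without an interphase counterpart held GAGAG, against 97.6% of the shared ones. The part of repeats in these calls was not tested.

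Interphase GAF peaks without a mitotic one lay at 20 genes in 19 loci (7.69% of the microRNA genes, against 14.1% of all genes). The longest were at mir-4982 (1000 bp, whose near edge is 1919 bp from the hairpin), mir-282 (950 bp), mir-4973 (900 bp), mir-92a (600 bp), and mir-1000 and mir-317 (500 bp each). mir-282, known from adult survival and egg laying, had its peak on a start of the host transcript. mir-92a, in an intron of jigr1 and with a role in neuroblast upkeep, had its peak 401 bp downstream of the hairpin. That peak lay on a start of jigr1. In the list of growth, metabolism and ageing, mir-14, mir-275 and mir-305 had interphase peaks only (400 to 450 bp for the longest), and the other 5 of 8 had none. Of 14 mirtrons, whose hairpins are spliced introns, mir-1004, mir-1011 and mir-1012 had interphase peaks only, of 150 to 200 bp. A mitotic GAF peak was listed at 0 of the 14, a count that allows a share of up to 21.4%, against 10.8% of all genes. No GAF peak of either stage lay near the 19 genes of the testis-biased clusters, which lie at 6 loci (0 of 6 loci allows a share of up to 50%). None lay near the 5 genes of the miR-9 family at 3 loci, mir-1 and mir-133 of muscle, or the 3 genes of the let-7 complex, too few loci for a limit.

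The deposited list of GAF regions of both stages is named as interphase peaks that overlap a mitotic one, which is how the study defines its retained set. It holds 2362 regions with a median of 750 bp, against 1552 retained peaks by the 2 stage lists used above. Of the 2362, 38 have the same ends as an interphase peak of the stage list, 2329 overlap one and 1527 overlap a mitotic peak of the stage list. The retained counts given above thus rest on another set of peaks than that list. That list reached 40 members (15.4%), against 16.1% of all genes: the 33 with retained peaks and 7 more, namely mir-14, mir-92a, mir-282, mir-317, mir-1000, mir-4973 and mir-4985. These 7 had interphase peaks only by the stage lists, so their class depends on which list is used.

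**Figure D3:**
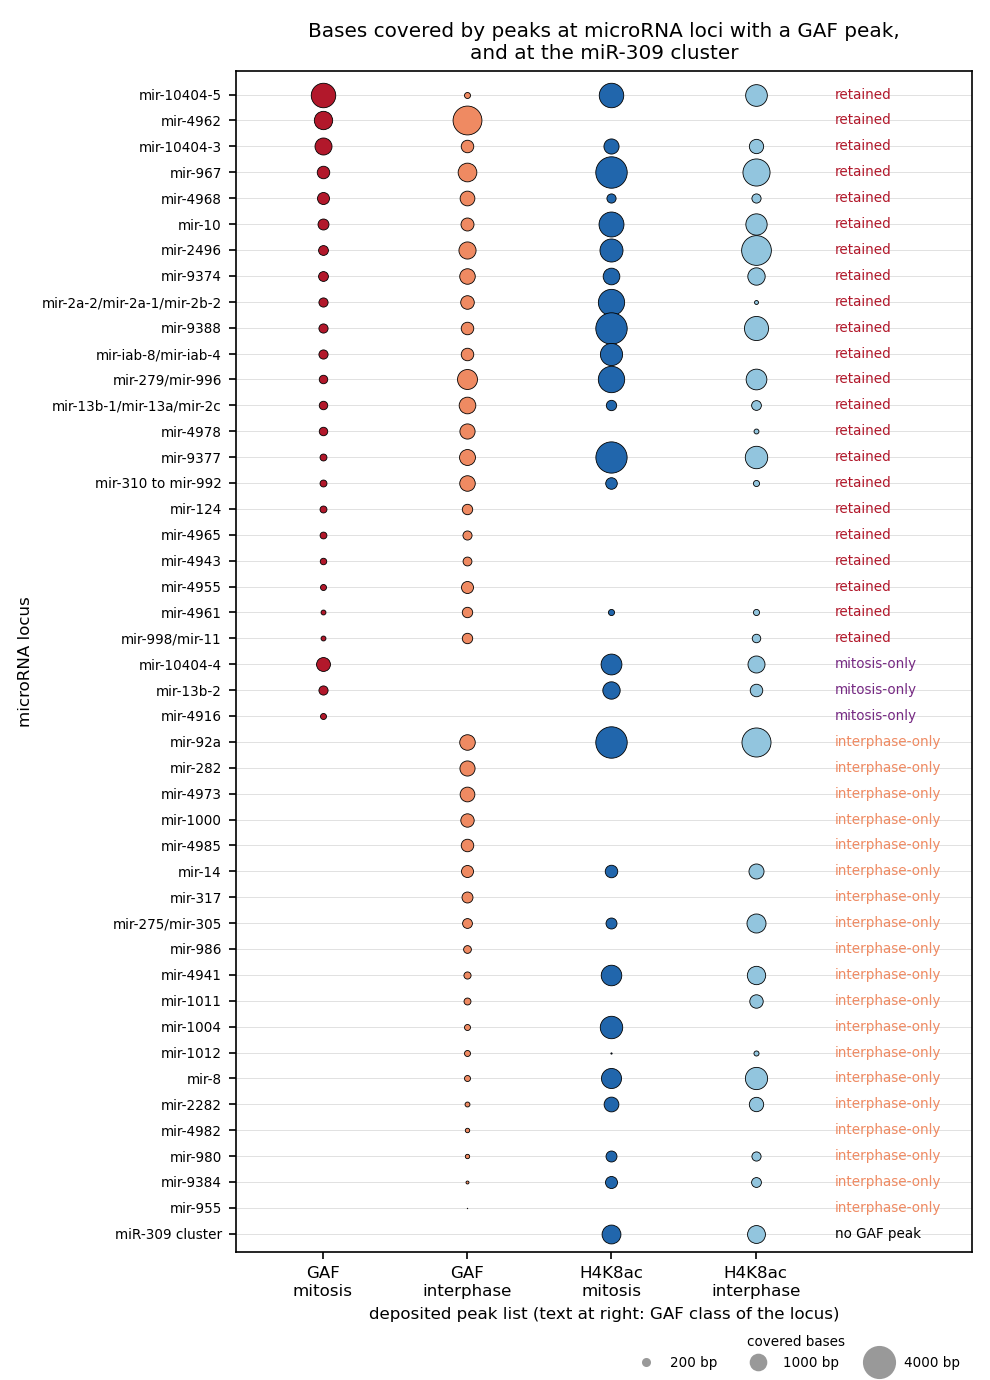
Bases covered by peaks (circle area, bp) over each microRNA locus with 2 kb to each side, for the 44 loci with a GAF peak and the miR-309 cluster, with mitosis left of interphase for each target. Colours mark the lists and the text at the right gives the GAF class. Of the 22 loci with retained peaks, 17 have H4K8ac in at least 1 stage, and the miR-309 cluster has H4K8ac in both stages and no GAF.

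Mitotic H4K8ac peaks lay on or within 2 kb of 101 microRNA genes (38.8%, 33.1 to 44.9), against 58.0% of all genes. Interphase H4K8ac peaks lay there at 108 (41.5%, 35.7 to 47.6), against 60.0% of all genes. Peaks shared by both stages lay at 95 (36.5%, 30.9 to 42.5), against 54.2% of all genes, and with an overlap of at least 50% of both peaks at 62 (23.8%), against 40.5%. Of the genes without a peak shared by at least 1 base, 9 had a mitotic and no interphase peak within 2 kb. The reverse held at 12, peaks of both stages without overlap lay at 1, and 143 genes had none. Such a mitotic peak can still overlap an interphase peak farther away, like that of 3350 bp at mir-1004. Of the 93 interphase H4K8ac peaks at microRNA genes, 81 overlapped a mitotic one (87.1%, 78.8 to 92.5), against 74.0% of all interphase H4K8ac peaks. Those at microRNA genes were longer, with a median of 1500 bp against 1100 bp in the list.

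The miR-309 cluster has 8 hairpins (mir-309, mir-3, mir-286, mir-4, mir-5, mir-6-1, mir-6-2 and mir-6-3) within 1059 bp on the minus strand of arm 2R, at 19660716 to 19661774, in exons of lncRNA:CR44504. No GAF peak of either stage was listed within 2 kb of it. The nearest interphase GAF peak lay 4716 bp beyond mir-6-3 and measured 250 bp, and the next, of 650 bp, lay 7127 bp upstream of mir-309. The nearest mitotic GAF peak lay 28516 bp away. The zero covers 1 locus, since the 8 genes share their flanks.

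H4K8ac reached all 8 hairpins of the miR-309 cluster within 2 kb in both stages, from the upstream side. The mitotic peak measured 3700 bp and began 527 bp upstream of the 5' end of mir-309, and the interphase peak measured 3550 bp and began 677 bp upstream. Both end at the same listed base, and the mitotic edge lay 150 bp nearer to the hairpins. The annotated start of the host transcript was 454 bp from the mitotic peak, which covered the start of the divergent gene CG11018. Neither peak covered a hairpin. From mir-6-3 the mitotic peak was 1506 bp away and the interphase peak 1656 bp. A further mitotic H4K8ac peak of 850 bp began 2116 bp beyond mir-6-3, outside the limit, and overlapped no interphase peak.

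**Figure D4:**
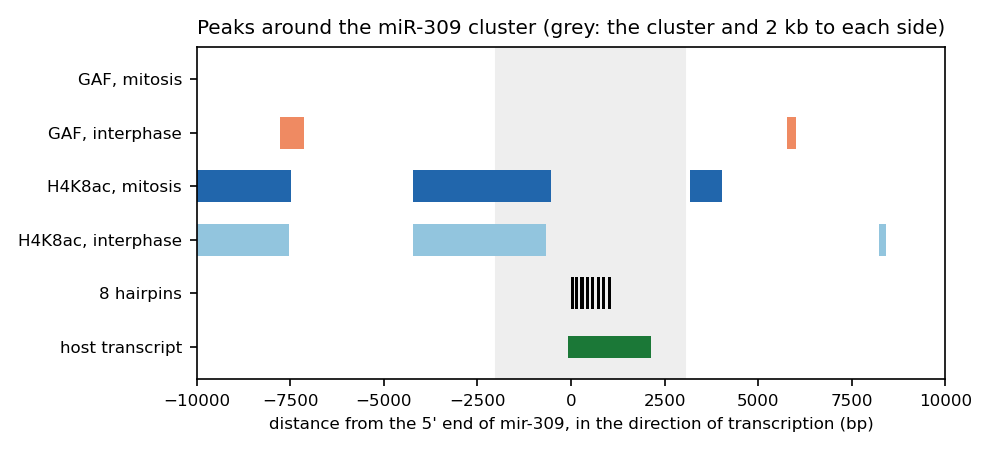
Peaks around the miR-309 cluster, by distance (bp) from the 5' end of mir-309 in the direction of transcription, with 1 row per list (mitosis above interphase) and the hairpins and host transcript below. The grey band is the cluster with 2 kb to each side. The mitotic H4K8ac peak of 3700 bp and the interphase one of 3550 bp reach into the band from upstream, and no GAF peak does.

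mir-ban (bantam), which promotes growth and blocks cell death, lay inside H4K8ac peaks over its whole window of 4081 bp in both stages, with peaks of 6100 bp in mitosis and 8650 bp in interphase. It had no GAF peak within 2 kb. mir-4984 was covered over 4123 bp in mitosis and 1562 bp in interphase, and mir-92a over 4095 bp in mitosis and 3500 bp in interphase. The 2 mir-281 genes were covered over 2210 bp in mitosis and 4310 bp in interphase, and mir-7 over 1534 bp in mitosis and 4088 bp in interphase. Among loci without a mitotic GAF peak these 5 were picked as the 3 with the most covered bases in each stage, but a fully covered window has no higher value, and the order among such loci is that of their lengths. The windows of 4 such loci were covered in full in mitosis, mir-9383 being the other one, and those of 5 in interphase, with mir-9380 and mir-4917.

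In the muscle list, mir-1 had H4K8ac in mitosis only (660 bp) and mir-133 had none. No H4K8ac peak of either stage was listed at the 3 genes of the let-7 complex, which is expressed in late larvae and pupae. Of the testis-biased genes, 4 of 19 had H4K8ac in mitosis and 5 in interphase. These lie at the neighbouring loci of mir-982 and mir-983-1, with peaks of 100 bp in mitosis and 350 bp in interphase. Of the mirtrons, whose windows lie inside other genes, 7 of 14 had H4K8ac in mitosis and 8 in interphase. Over all genes the shares were 58.0% in mitosis and 60.0% in interphase. In the miR-9 family, mir-4 and mir-9a had H4K8ac in both stages and the other 3 in neither.

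Members were also grouped by their position. Of the 260, 82 overlap an exon and 100 an intron of a gene on their strand, 27 lie within a gene of the opposite strand only, and 51 are intergenic. Mitotic H4K8ac was listed at 47.6% of the exonic, 37.0% of the intronic, 25.9% of the opposite-strand and 35.3% of the intergenic members. Retained GAF was listed at 12 of the exonic (14.6%), 11 of the intronic (11.0%), 1 of the opposite-strand (3.70%) and 9 of the intergenic members (17.6%). Over all genes the shares were 58.0% for mitotic H4K8ac and 11.0% for retained GAF. These counts are small and genes of a cluster share peaks, so no order by position is drawn from them.

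A retained GAF peak together with a mitotic H4K8ac peak lay within 2 kb of 20 microRNA genes (7.69%, 5.03 to 11.6), against 9.03% of all genes. At 1 kb it was 11 microRNA genes (4.23%), against 7.28%, and with peaks of at least 400 bp 5 (1.92%), against 3.11%. The order turned at 5 kb, with 36 (13.8%) against 13.7%, and with an overlap of at least 50%, with 11 (4.23%) against 3.74%. Read the other way, mitotic H4K8ac was at 20 of the 33 genes with retained GAF (60.6%, 43.7 to 75.3), at 11 of the 20 with interphase GAF only (55.0%, 34.2 to 74.2) and at 68 of the 204 with no GAF peak (33.3%, 27.2 to 40.1). The same order held in all genes, where, within 2 kb of the 5' end, the shares were 72.8% with retained GAF, 54.9% with interphase GAF only and 48.4% with none. Of the 33 mitotic GAF peaks at microRNA genes themselves, 14 overlapped a mitotic and 12 an interphase H4K8ac peak. This overlap was not counted for the whole list of mitotic GAF peaks, so these counts have no share to be set against.

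The length under H4K8ac peaks was set side by side in the 2 stages for the 96 loci with H4K8ac in at least 1 of them. Among the 17 such loci with retained GAF, it was higher in mitosis at 11, lower at 4 and equal at 2, with a median difference (mitosis minus interphase) of 400 bp. Among the 66 without a GAF peak, it was higher in mitosis at 19, lower at 41 and equal at 6, with a median difference of -150 bp. The 11 loci with interphase GAF only had 6 higher and 5 lower, with a median difference of 50 bp. Over 2 kb on each side of the 5' end, 16 of 23 microRNA genes with retained GAF and any H4K8ac had more in mitosis (69.6%), against 48.8% of all such genes. Without a GAF peak these shares were 36.6% of microRNA genes and 28.8% of all genes. Both stages' lists were called with the same settings on 2 pooled samples each, so these differences have no measured error. A difference in length can include bridged gaps, and peaks were cut at the limit of 2 kb. The stages also differed in sonication time, which cannot be told apart from stage.

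**Figure D5:**
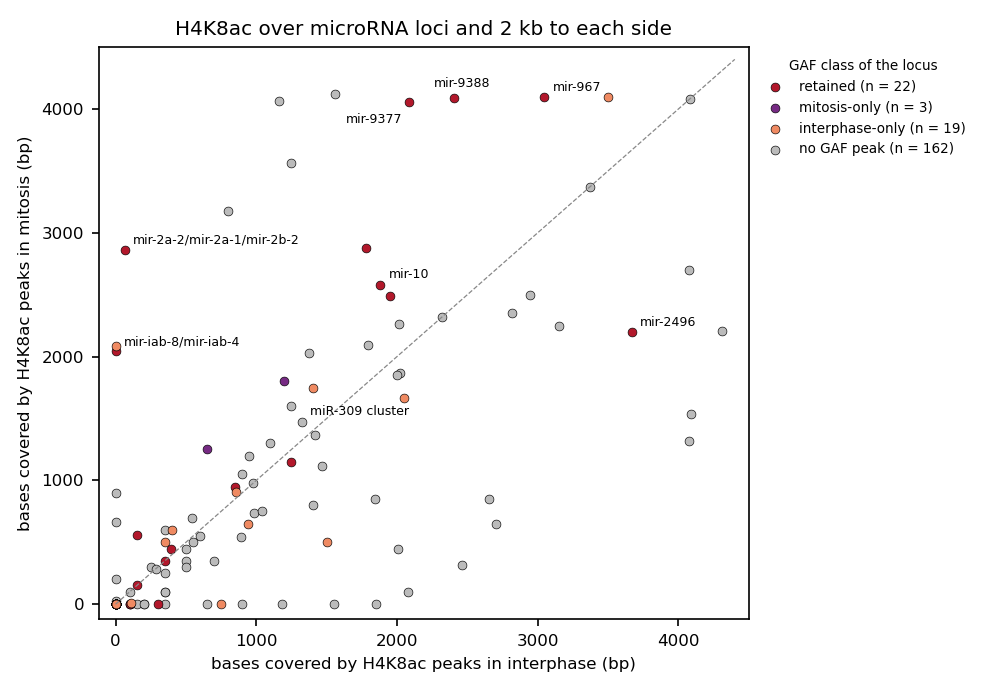
Bases covered by H4K8ac peaks in mitosis (vertical axis, bp) and in interphase (horizontal axis, bp) over each of the 206 microRNA loci with 2 kb to each side, coloured by GAF class. Points above the dashed line had more covered bases in mitosis. Of the 22 loci with retained GAF, 11 lie above the line and 4 below it, and of the 162 without GAF, 19 lie above and 41 below.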

How the data were processed

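Whole yw embryos gave 9 ChIP and 9 input samples (GAF and H4K8ac, mitosis and interphase). The authors trimmed reads with cutadapt 1.16 and aligned them to dm6 with Bowtie2, per the submitters' processing notes, and deposited peak positions called on pooled replicates, on a grid of 50 bp. The H4K8ac lists carry calling settings in their names that differ from those in the methods, and neighbouring H4K8ac peaks are at least 2000 bp apart, against 200 bp for GAF, so H4K8ac peaks can bridge gaps. A listed start was read as the first base of a peak and a listed end as the first base after it. Depth per sample is not given in the files, and 0 columns of per-sample values were left unused. A further list per target, of regions of both stages, served as an alternative.

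Genes came from the Ensembl annotation of the same assembly (release 115) and sequences from RefSeq. Peaks overlapping a gene or within 2 kb were counted (Python 3.11.15, scipy 1.17.1), and peaks of both stages were shared if they overlapped by at least 1 bp. Shares have 95% Wilson intervals. With no value per sample, no test was run, and the counting code was tested on simulated data. GAGAG and CAGGTAG were counted on both strands.

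The members and lists were chosen with earlier results of these data known. Genes named are the miR-309 cluster, all loci with a mitotic GAF peak, the 6 loci with the longest interphase GAF peaks and the 3 with the most H4K8ac in each stage among the rest, and the examples of 11 lists. Other genes are named for being near the 2 kb limit, or because they share a seed or a locus with these, and were chosen after their values were seen.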

Additional observations from a re-analysis of the deposited data

How the results depend on the processing

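Counts of genes moved with the distance allowed, the overlap required and the length of the peaks. At 1 kb, 17 genes had a mitotic GAF peak, 32 an interphase one, 19 a retained one and 11 a retained GAF peak with mitotic H4K8ac. At 5 kb, 96 genes had an interphase GAF peak and 36 a retained one with mitotic H4K8ac. With a reciprocal overlap of 50%, retained GAF was left at 13 genes and 10 loci, retained GAF with mitotic H4K8ac at 11 genes and shared H4K8ac at 62. With peaks of at least 400 bp, 9 genes had a mitotic GAF peak, 9 genes and 9 loci a retained one, and 5 a retained one with mitotic H4K8ac. The other 35 values stayed within 1.5 times the reported counts, among them those from the deposited lists of both stages, without the mirtrons, with loci joined within 10 kb and, chosen after seeing the data, without the mir-10404 copies (32 genes with mitotic and 31 with retained GAF).

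No paired analysis was possible because the lists used here pool the replicates of each stage, and leaving out a replicate was not possible for the same reason. The files used here do not give the depth behind each list, for which only a range over all libraries is stated by the study.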
